A study of Mus musculus with 18 samples.

Results

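The genes of the glycolysis enzymes were followed in nascent RNA of mouse embryonic stem (mES) cells with and without *Tet2*. The members are *Gpi1*, *Pfkl*, *Aldoa*, *Tpi1*, *Gapdh*, *Pgk1*, *Pgam1*, *Eno1*, *Pkm* and *Ldha*, and they were found by matching the identifiers of the count tables to gene symbols in the GENCODE M21 mouse annotation. The 10 symbols matched 11 of 54446 gene identifiers, because *Aldoa* carries a second identifier (ENSMUSG00000114515) just upstream of the main one (ENSMUSG00000030695). All 11 passed the filter on low counts. Counts of members below are out of these 11 identifiers.

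Glycolysis breaks glucose down to pyruvate in the cytosol and yields ATP and NADH. After hexokinase has trapped glucose as glucose-6-phosphate, GPI1, PFKL, ALDOA and TPI1 convert the sugar into glyceraldehyde-3-phosphate, and GAPDH, PGK1, PGAM1, ENO1 and PKM then turn that into pyruvate. LDHA reduces pyruvate to lactate and thereby returns NAD+ to the GAPDH step. Mouse ES cells in culture use glycolysis together with mitochondrial respiration. Many of the genes are known targets of HIF1 and MYC, and *Gapdh* is often used as a reference gene for RNA measurements.

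In all, 6 groups of 3 libraries were compared, namely WT and *Tet2*-KO (*Tet2*-/-) mES cells labelled with 1 mM 5-ethynyl uridine (EU), a uridine analogue that is built into new RNA, for 10, 20 or 40 min. EU-containing RNA was coupled to biotin, captured on streptavidin beads and sequenced, and the authors deposited the reads counted on each gene. The cells of both genotypes grew with 15% serum, LIF, 3 µM CHIR99021 (a GSK3 inhibitor) and 1 µM PD0325901 (a MEK inhibitor), and had been passaged on gelatin to remove feeder cells. The methods name a single line of each genotype, so the 3 replicates of a group are dishes seeded 42 h before labelling, and a difference between genotypes cannot be told apart from any other difference between these lines. ERCC spike-in RNA was added in proportion to the total RNA of each sample. A level per ERCC read is therefore a level per total RNA, and in such bulk samples fewer cells and less RNA per cell cannot be told apart. A share of gene reads, in contrast, compares a gene with the other genes of the same library.

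To show the regulatory sequence next to the members that differed most, the 250 bases upstream of a RefSeq start (GRCm38.p6) are given for *Ldha* and *Aldoa*, which had the highest difference in share between genotypes over all times, and for *Tpi1* and *Pfkl*, which had the lowest. Capitals mark matches on either strand to CACGTG (an E-box), to ACGTG or GCGTG (the core of a hypoxia response element, which CACGTG also contains) and to GGGCGG (a GC box).
*Ldha*, first start listed, chr7:46845554-46845803, plus strand: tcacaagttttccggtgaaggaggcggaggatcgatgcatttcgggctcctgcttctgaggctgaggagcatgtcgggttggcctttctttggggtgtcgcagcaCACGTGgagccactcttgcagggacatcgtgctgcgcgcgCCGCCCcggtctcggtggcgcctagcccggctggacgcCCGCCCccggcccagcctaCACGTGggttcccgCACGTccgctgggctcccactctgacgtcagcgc
*Aldoa*, second of 3 starts listed, chr7:126799255-126799504, minus strand: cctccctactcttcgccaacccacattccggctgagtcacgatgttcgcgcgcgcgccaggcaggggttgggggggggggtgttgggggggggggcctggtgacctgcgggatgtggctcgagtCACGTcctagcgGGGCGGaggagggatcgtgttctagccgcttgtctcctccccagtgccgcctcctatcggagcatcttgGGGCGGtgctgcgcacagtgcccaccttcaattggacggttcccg
*Tpi1*, chr6:124814159-124814408, minus strand: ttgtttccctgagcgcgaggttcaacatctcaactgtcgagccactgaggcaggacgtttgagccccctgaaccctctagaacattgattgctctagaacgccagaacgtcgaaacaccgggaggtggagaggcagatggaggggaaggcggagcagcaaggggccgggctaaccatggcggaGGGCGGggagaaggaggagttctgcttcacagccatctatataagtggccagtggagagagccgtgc
*Pfkl*, chr10:78009808-78010057, minus strand: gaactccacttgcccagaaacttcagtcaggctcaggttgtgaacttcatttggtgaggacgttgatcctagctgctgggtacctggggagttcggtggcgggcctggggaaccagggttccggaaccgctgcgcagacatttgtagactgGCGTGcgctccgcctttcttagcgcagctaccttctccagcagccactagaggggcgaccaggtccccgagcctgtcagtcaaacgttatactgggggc

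RefSeq listed 16 such windows for the 10 members. CACGTG occurred in 1 of them, the *Ldha* window printed above, which held it 2 times, against 6.02% of 32851 windows of all genes. ACGTG or GCGTG occurred in 12 windows of 8 members (38.6% of all windows), GGGCGG in 9 windows of 7 members (32.7%) and TATAAA in none (12.4%). A match is a description of the letters in the window and not evidence of a bound factor. Of the windows not printed, that of the first *Aldoa* start listed held no match, and that of the second *Ldha* start held 1, to ACGTG or GCGTG.

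Between 17931614 and 23069143 reads per library fell on genes, and between 44162 and 512186 on ERCC transcripts. The *Tet2* gene kept its reads where the label was *Tet2*-KO, with 535 ± 5.12 (SD, n = 3) reads per 1000000 gene reads (RPM) at 10 min, 589 ± 6.51 at 20 min and 639 ± 4.27 at 40 min, against 596 ± 5.71, 690 ± 10.5 and 737 ± 3.42 in WT. Such whole-gene counts cannot reveal a deleted exon, so the genotypes are those of the labels, and *Tet2*-KO below means the libraries labelled so. Of 8 mES cell markers, 7 were measured at 3064 to 3253 RPM summed in WT and 2185 to 2325 in *Tet2*-KO, and *Sox2* was listed at 0 in every library. *Sox2* lies inside the span of *Sox2ot* on the same strand, where reads were not assigned. As share of gene reads over all times, 24.6% of all genes were called higher in *Tet2*-KO and 32.0% lower. Of the 7 tested markers 1 was higher (*Pou5f1*) and 6 were lower, among them *Zfp42* with a log2 fold change of -2.25. Fibroblast markers (5 of 8 tested, 2 higher and 1 lower, with *Dcn* at 0 to 6 and *Lum* at 0 to 1 reads) summed to 21.5 to 23.0 RPM at 10 min in WT and 12.4 to 13.9 at 20 min in *Tet2*-KO, against 6.46 to 9.08 in the other groups, and primitive endoderm markers (4 of 6 tested, 1 lower, *Sox17* and *Foxa2* at 0 to 7 reads) to 5.49 to 13.8 in all. WT at 10 min and *Tet2*-KO at 20 min thus stood apart in fibroblast markers, and their part in the differences below that involve these groups was not tested.

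The reads came from the whole span of a gene, introns included, on its own strand. Of 1196 genes that lay in an intron of an abundant gene on the same strand, all 1196 had no read, whereas of 941 on the opposite strand only 98 had none. In the members, exons made up from 9.61% of the span (the second *Aldoa* identifier) and 13.5% (*Pgk1*) to 87.0% (*Gapdh*). *Gpi1* lies at chr7:34201330-34230336 (mm10), *Pfkl* at chr10:77986947-78010083, *Aldoa* at chr7:126795234-126800751, its second identifier at chr7:126800790-126809108, *Tpi1* at chr6:124810586-124814296 and *Gapdh* at chr6:125161715-125166467, all on the minus strand. *Pgk1* lies at chrX:106187100-106203699, *Pgam1* at chr19:41911923-41918660, *Eno1* at chr4:150236721-150248879, *Pkm* at chr9:59656368-59679375 and *Ldha* at chr7:46841475-46855627, all on the plus strand.

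Some members share exon sequence with copies elsewhere, and reads that fit several places were left out of the counts. Of the 50-base words in the longest coding transcript, 82.5% also occurred in other genes for *Gapdh* (213 pseudogenes among 222 genes), 72.2% for *Eno1* (70.5% in *Eno1b* alone), 68.0% for *Pgk1*, 41.5% for *Pgam1*, 34.4% for *Pkm*, 25.3% for *Gpi1*, 16.6% for *Ldha*, 13.5% for *Aldoa*, 7.51% for *Tpi1* and 0.0543% for *Pfkl*. The exon parts of the levels are therefore the most uncertain for the first of these. Exons made up 87.0% of the span of *Gapdh*, 44.2% of that of *Eno1* and 13.5% of that of *Pgk1*. Since the counts include introns, the same order need not hold for the whole level.

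The first comparison asked whether nascent RNA of the members differed between genotypes when calibrated by the spike-in. All 11 identifiers were higher in *Tet2*-KO over the 3 labelling times, from 1.16-fold for *Tpi1* to 2.09-fold for *Ldha* (edgeR, quasi-likelihood F test, Benjamini-Hochberg adjusted over 19910 genes, as in all tests below). P-values measure the spread between dishes of the same line. On this scale 80.5% of all genes were called higher, so the count of members was that of most genes. The median log2 fold change was 0.76 over the members and 0.70 over all genes. At 10 min 11 members were higher (79.0% of all genes), at 20 min 9 (53.7%) and at 40 min 9 (68.2%), and all log2 fold changes were above 0. The 2 not called at 20 and 40 min were *Tpi1* and the second *Aldoa* identifier.

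**Figure D1:**
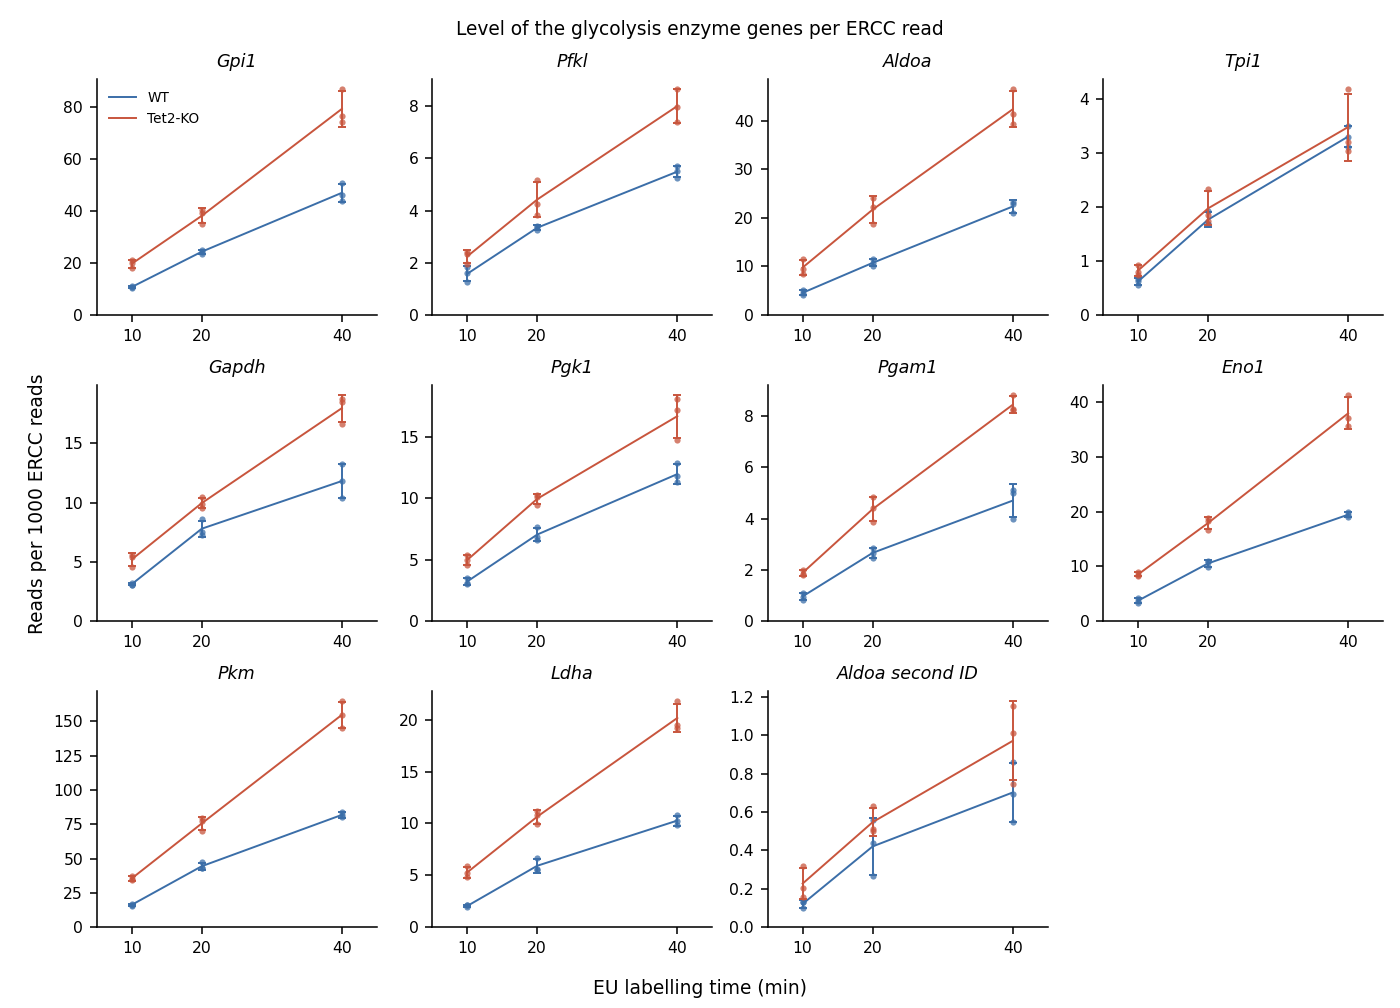
Reads per 1000 ERCC reads (vertical axis, from 0, its own range in each panel) against EU labelling time in min, for each of the 11 identifiers. Points are libraries, lines join group means and bars are the SD (n = 3). Every member rose with labelling time in both genotypes, and at 40 min all 3 *Tet2*-KO libraries lay above all 3 WT libraries for 9 of the 11, the exceptions being *Tpi1* and the second *Aldoa* identifier.

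The second comparison took each gene as a share of the gene reads, which removes whatever is common to all genes of a library. The members then divided. *Ldha*, *Aldoa*, *Eno1* and *Pkm* took a larger share in *Tet2*-KO, while *Tpi1*, *Pfkl*, *Pgk1* and *Gapdh* took a smaller one, and *Gpi1*, *Pgam1* and the second *Aldoa* identifier were not called. Higher calls were 4 of 11 for the members and 24.6% for all genes, and lower calls were 4 of 11 and 32.0%. The median log2 fold change was 0.02 over the members and -0.04 over all genes. By time, 3 members were higher (17.9% of all genes) and 5 lower (27.1%) at 10 min, 6 higher (17.6%) and 1 lower (20.7%) at 20 min, and 4 higher (18.9%) and 2 lower (19.6%) at 40 min. With edgeR's TMM scaling the counts at 10 min were 4 higher and 5 lower, beside 4477 higher and 4262 lower of 19910 genes. Higher calls then made up 51.2% of the calls over all genes instead of 39.7%. Over all times TMM gave 6 members higher and 4 lower, beside 5690 higher and 5546 lower of 19910 genes. The even division of the members thus depended on the scaling.

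**Figure D2:**
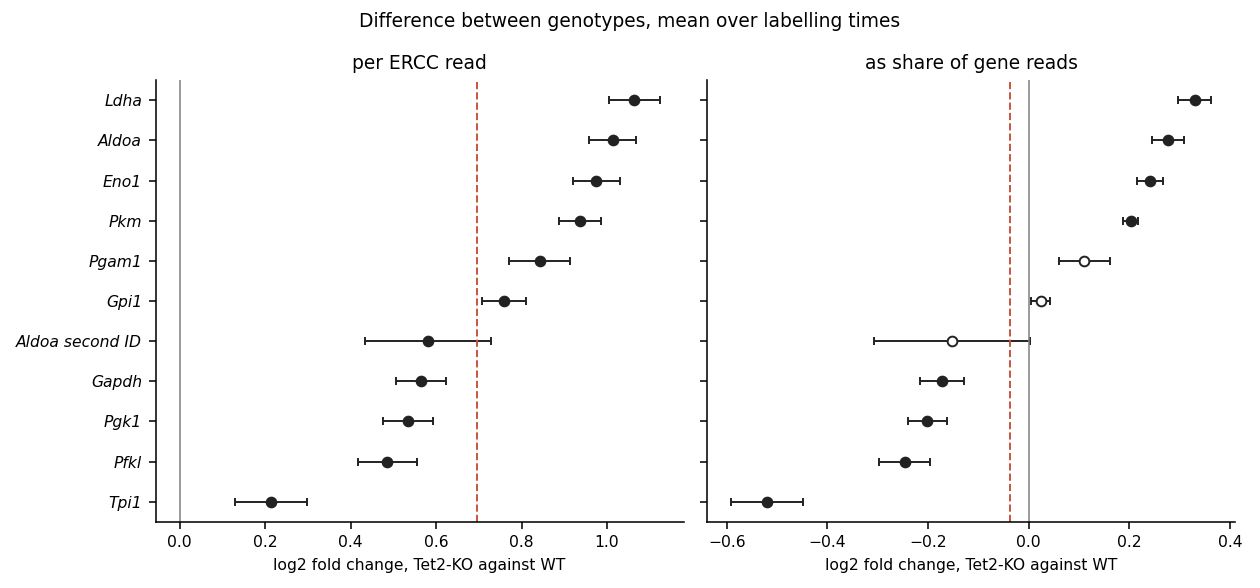
Log2 fold change of *Tet2*-KO against WT, averaged over the labelling times, per ERCC read (left) and as share of gene reads (right), with the genes in the order of the right panel. Bars are the standard error, filled points passed the test, open points did not, and the dashed line is the median of all 19910 genes. *Ldha* lies highest and *Tpi1* lowest on both scales.

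Among the enzymes of the upper part, *Tpi1* (triose phosphate isomerase, which interconverts the products of aldolase) stood lowest. Its WT levels were 0.560, 0.671 and 0.627 reads per 1000 ERCC reads at 10 min, 1.69, 1.92 and 1.68 at 20 min and 3.30, 3.49 and 3.11 at 40 min. In *Tet2*-KO they were 0.798, 0.925 and 0.740, then 1.74, 1.84 and 2.33, then 4.19, 3.04 and 3.21. The groups were apart at 10 min (0.41 ± 0.15, adjusted p = 0.00782) and overlapped at 20 and 40 min. Without *Tet2*-KO 10 min replicate 2 the value at 10 min was 0.32 (adjusted p = 0.0664). The log2 fold change per ERCC read was 0.21 ± 0.09 (SE) over all times (adjusted p = 0.0154), and it was no longer called without *Tet2*-KO 20 min replicate 3 (0.17, adjusted p = 0.0763) or *Tet2*-KO 40 min replicate 1 (0.16, adjusted p = 0.0768). As a share of gene reads, *Tpi1* was at 12.0 to 14.6 RPM in WT at 10 min and 7.35 to 10.3 in *Tet2*-KO, and at 13.0 to 13.6 and 8.09 to 9.76 at 40 min. No library of one genotype reached the other at either time. The log2 fold change of the share was -0.62 ± 0.12 at 10 min (adjusted p = 9.18e-05), -0.32 ± 0.12 at 20 min (adjusted p = 0.0379) and -0.62 ± 0.12 at 40 min (adjusted p = 0.000124). The call at 20 min was lost without any of the 3 WT libraries or *Tet2*-KO replicates 1 or 2 of that time, with values of -0.34 to -0.25 and adjusted p of 0.0609 to 0.18. *Tpi1* had 140 to 321 reads per library.

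*Pfkl*, the liver-type subunit of phosphofructokinase, which commits the sugar to glycolysis, had the lowest level per length of the main identifiers by the median over all libraries, although *Tpi1* was lower per kb of exon at 10 min in both genotypes. Its share in WT fell from 34.8, 36.0 and 29.7 RPM at 10 min to 22.4, 21.7 and 24.1 at 20 min, and was 21.6, 22.02 and 23.0 at 40 min. In *Tet2*-KO the share was 24.3, 21.9 and 24.1, then 20.1, 24.0 and 20.1, then 20.2, 21.7 and 18.6. The genotypes were apart at 10 min and overlapped at 20 and 40 min. The difference in share was called at 10 min (-0.51 ± 0.08, adjusted p = 5.43e-06) and not at 20 min (-0.09 ± 0.09) or 40 min (-0.14 ± 0.09). Per ERCC read, *Pfkl* was higher at all 3 times, with log2 fold changes of 0.51 ± 0.12, 0.40 ± 0.12 and 0.54 ± 0.12, and the call at 20 min was lost without *Tet2*-KO replicate 2 (0.28, adjusted p = 0.0755).

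*Gpi1* encodes glucose-6-phosphate isomerase, the enzyme after hexokinase. Its WT share was 232, 220 and 239 RPM at 10 min, 169, 160 and 168 at 20 min and 189, 197 and 184 at 40 min, against 208, 202 and 209, then 183, 187 and 185, then 203, 203 and 193 in *Tet2*-KO. WT libraries were above *Tet2*-KO at 10 min and below them at 20 min. Both differences passed the test, with -0.16 ± 0.03 at 10 min (adjusted p = 0.000128) and 0.16 ± 0.03 at 20 min (adjusted p = 0.000191), while that at 40 min did not (0.07 ± 0.03, adjusted p = 0.0895). Over all times the value was 0.02 ± 0.02 as share and 0.76 ± 0.05 per ERCC read. With TMM scaling the share difference over all times was called, at 0.06 (adjusted p = 0.00386).

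*Aldoa*, the aldolase that cleaves fructose-1,6-bisphosphate, differed little in share at 10 min and most at 20 min. WT libraries were at 97.2, 99.8 and 94.8 RPM at 10 min, 73.6, 73.0 and 71.7 at 20 min and 85.8, 88.5 and 96.9 at 40 min. *Tet2*-KO libraries were at 98.1, 93.1 and 114, then 97.7, 112 and 106, then 108, 107 and 104. They overlapped at 10 min and were apart at the later times. The log2 fold change of the share was 0.07 ± 0.05 at 10 min (adjusted p = 0.343), 0.53 ± 0.06 at 20 min (adjusted p = 1.8e-09) and 0.24 ± 0.05 at 40 min (adjusted p = 0.000675). Per ERCC read the differences were 1.10 ± 0.09, 1.02 ± 0.10 and 0.92 ± 0.09. The second *Aldoa* identifier held 32 to 76 reads per library, and its share did not differ by more than its error at any time (-0.14 ± 0.27, -0.12 ± 0.27 and -0.20 ± 0.27). Per ERCC read it was called at 10 min (0.90 ± 0.26, adjusted p = 0.000743), but not without *Tet2*-KO replicate 3 of that time (0.59, adjusted p = 0.0529).

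The lower part of glycolysis opens with *Gapdh* and *Pgk1*, which carry out the step that makes NADH and the first step that makes ATP. *Gapdh* had a WT share of 65.8, 62.8 and 71.8 RPM at 10 min, 50.4, 47.8 and 61.2 at 20 min and 54.5, 45.6 and 43.4 at 40 min, against 58.1, 51.2 and 53.8, then 49.97, 48.5 and 46.6, then 43.7, 45.5 and 46.6 in *Tet2*-KO. *Pgk1* had 65.0, 69.2 and 72.6, then 45.6, 43.6 and 54.6, then 48.4, 49.6 and 47.1 in WT, against 56.1, 51.1 and 48.96, then 49.4, 47.0 and 48.5, then 42.1, 40.2 and 43.4. For both genes the genotypes were apart at 10 min and overlapped at 20 min, and at 40 min *Pgk1* was apart again. The share of *Gapdh* was lower at 10 min (-0.29 ± 0.07, adjusted p = 0.00154), with -0.14 ± 0.08 at 20 min and -0.08 ± 0.08 at 40 min. The share of *Pgk1* was lower at 10 min (-0.40 ± 0.06, adjusted p = 3.44e-06) and at 40 min (-0.21 ± 0.07, adjusted p = 0.0137), with 0.01 ± 0.07 at 20 min. The call at 40 min was lost without WT replicate 2 (-0.19, adjusted p = 0.0542) or *Tet2*-KO replicate 2 (-0.18, adjusted p = 0.0764) of that time. Per ERCC read *Gapdh* was 1.48-fold and *Pgk1* 1.45-fold higher in *Tet2*-KO over all times. *Gapdh* thus gave different answers on the 2 scales, higher per total RNA and lower as a share.

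*Pgam1* (phosphoglycerate mutase) and *Eno1* (enolase) act on the following steps. *Pgam1* lay at 16.6 to 21.7 RPM in WT and 18.7 to 22.5 in *Tet2*-KO over all times, and the genotypes were apart at 20 min only. Its share differed by -0.06 ± 0.09 at 10 min, 0.23 ± 0.09 at 20 min (adjusted p = 0.0427) and 0.16 ± 0.09 at 40 min (adjusted p = 0.146). The call at 20 min was lost without WT replicates 1 or 2 or *Tet2*-KO replicates 2 or 3 of that time, with 0.18 to 0.24 and adjusted p of 0.0721 to 0.169. Over all times *Pgam1* was just short of a call as share (0.11 ± 0.05, adjusted p = 0.0626), and it was called with TMM scaling (0.15, adjusted p = 0.0116) and without WT 10 min replicate 2, WT 20 min replicate 3, WT 40 min replicate 1 or *Tet2*-KO 10 min replicate 1 (0.12 to 0.13, adjusted p of 0.0342 to 0.0485).

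*Eno1* was at 78.3, 81.8 and 78.9 RPM in WT at 10 min, 75.2, 69.7 and 70.2 at 20 min and 78.3, 74.7 and 83.6 at 40 min. *Tet2*-KO libraries were at 87.3, 92.1 and 88.8, then 87.0, 87.2 and 86.9, then 96.2, 97.3 and 93.6, above every WT library of the same time. The differences in share were 0.17 ± 0.04 (adjusted p = 0.00219), 0.28 ± 0.04 (adjusted p = 3.66e-06) and 0.28 ± 0.04 (adjusted p = 2.85e-06). Per ERCC read *Eno1* was 1.97-fold higher over all times.

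*Pkm*, which encodes the M1 and M2 forms of pyruvate kinase, was the most abundant member by reads, with 5691 to 8260 per library. The listed gene *Gm49759* overlaps it on the same strand and had 0 reads. Reads in the shared stretch may therefore be missing from the counts and the levels per length of *Pkm*. Its WT share was 352, 337 and 361 RPM at 10 min, 300, 301 and 306 at 20 min and 329, 325 and 340 at 40 min. In *Tet2*-KO it was 367, 381 and 370, then 366, 369 and 366, then 384, 397 and 389. Every *Tet2*-KO library lay above every WT library. The differences in share were 0.09 ± 0.03 (adjusted p = 0.00406), 0.28 ± 0.03 (adjusted p = 8e-11) and 0.23 ± 0.03 (adjusted p = 3.73e-09). Reads over the whole gene do not separate the forms, which differ by one exon.

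*Ldha*, the lactate dehydrogenase subunit that is typical of glycolytic cells, had the highest difference of the members over all times on both scales, while *Aldoa* was higher at 20 min (0.53 as share and 1.02 per ERCC read). Per 1000 ERCC reads it was at 2.11, 2.10 and 1.92 in WT at 10 min, 5.60, 6.68 and 5.48 at 20 min and 9.83, 10.8 and 10.2 at 40 min. In *Tet2*-KO it was at 5.18, 4.80 and 5.86, then 9.90, 10.9 and 11.2, then 21.8, 19.2 and 19.5. Every *Tet2*-KO library lay above every WT library of the same time, and log2 fold changes were 1.37 ± 0.10 at 10 min, 0.85 ± 0.10 at 20 min and 0.97 ± 0.10 at 40 min. As share, *Ldha* was at 38.8 to 45.3 RPM in all WT libraries and at 49.2 to 58.2 in all *Tet2*-KO libraries. The share differed by 0.33 ± 0.06 (adjusted p = 7.34e-06), 0.37 ± 0.06 (adjusted p = 2.74e-06) and 0.29 ± 0.06 (adjusted p = 8.58e-05). The window of its first start listed was the one with CACGTG, and a link between this match and the difference was not tested.

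**Figure D3:**
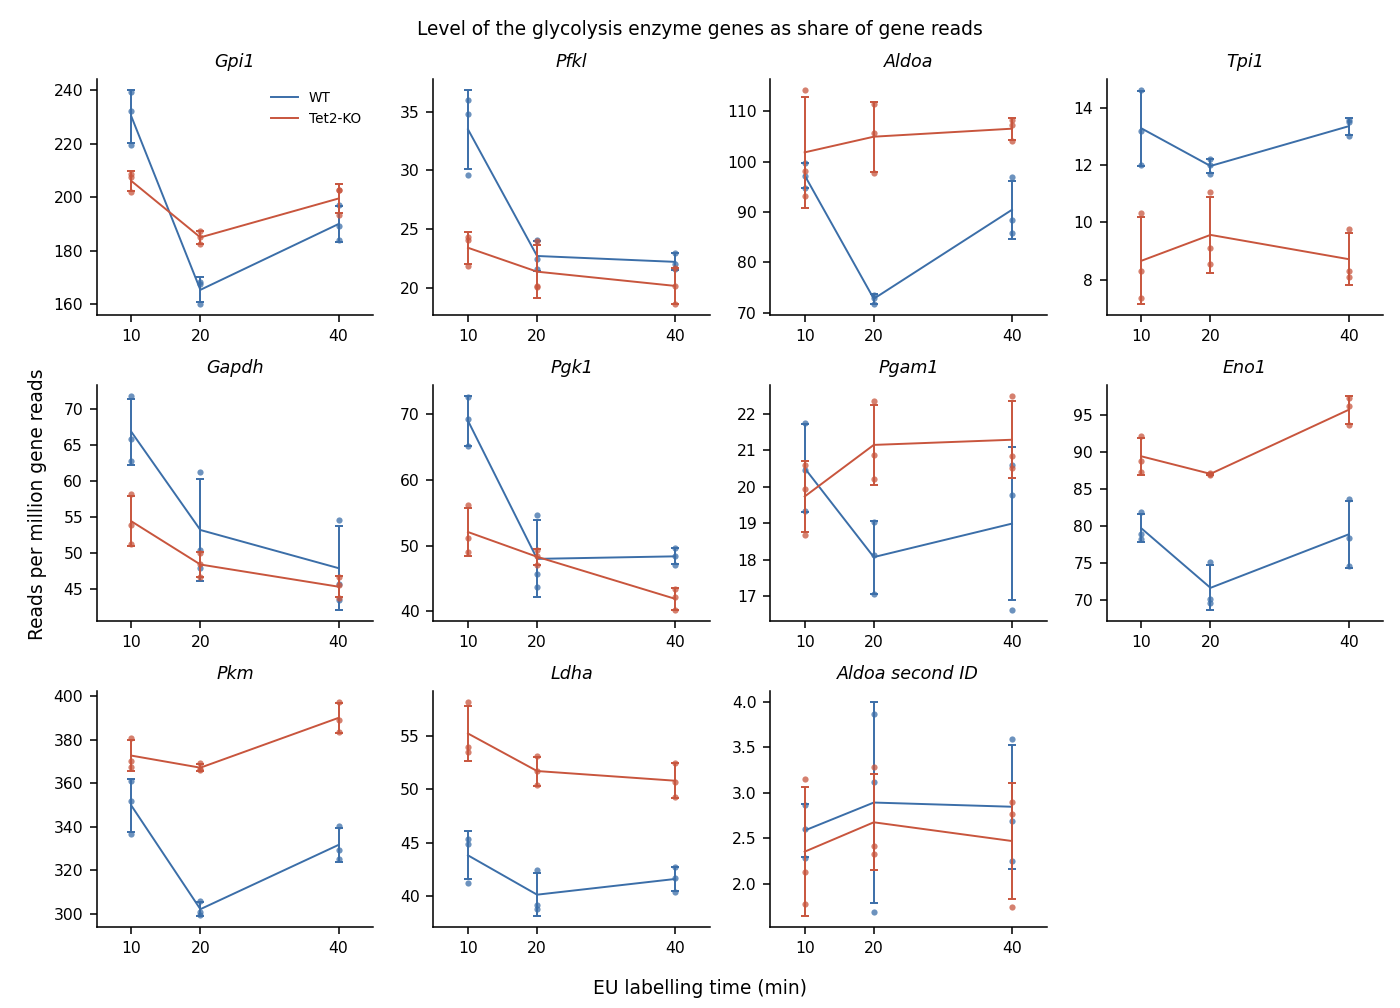
Reads per 1000000 gene reads (RPM, vertical axis, its own range in each panel and not starting at 0) against EU labelling time in min. Points are libraries, lines join group means and bars are the SD (n = 3). WT shares of *Gpi1*, *Pfkl*, *Aldoa*, *Gapdh*, *Pgk1*, *Eno1* and *Pkm* were lower at 20 than at 10 min, and all *Tet2*-KO libraries lie above all WT libraries for *Eno1*, *Pkm* and *Ldha*.

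The third comparison followed the members over labelling time within a genotype. Per ERCC read, all 11 rose from 10 to 40 min, by log2 fold changes of 1.80 to 2.53 in WT (96.7% of all genes were called higher) and 1.74 to 2.16 in *Tet2*-KO (94.7%). As share of gene reads, 5 members were lower at 40 than at 10 min in WT (29.5% of all genes), namely *Pfkl* (-0.59 ± 0.08), *Pgk1* (-0.51 ± 0.06), *Gapdh* (-0.48 ± 0.08), *Gpi1* (-0.28 ± 0.03) and *Pkm* (-0.08 ± 0.03). The value for *Pkm* became 0.025 with TMM scaling (adjusted p = 0.473), and its call was lost without WT 10 min replicate 3 or WT 40 min replicates 1 or 2 (-0.07 to -0.05, adjusted p of 0.0528 to 0.113). TMM moved the median of all genes in this comparison by 0.10, and higher calls then made up 50.9% of all calls instead of 35.2%. In *Tet2*-KO 2 members were lower (20.0% of all genes), *Pgk1* (-0.32 ± 0.07) and *Gapdh* (-0.27 ± 0.08), and *Pkm* was higher (0.07 ± 0.03, with 16.5% of all genes called higher). *Gapdh* was no longer called without *Tet2*-KO 10 min replicate 1 (-0.21, adjusted p = 0.0503). *Pkm* was no longer called without *Tet2*-KO 10 min replicates 1 or 3, *Tet2*-KO 20 min replicate 3 or *Tet2*-KO 40 min replicates 2 or 3 (0.05 to 0.07, adjusted p of 0.0508 to 0.184).

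The comparison of 20 with 10 min was added after the levels had been seen. In WT 7 of 11 members had a lower share at 20 min, where 11.1% of all genes were called lower. They were *Pfkl* (-0.56 ± 0.08), *Pgk1* (-0.52 ± 0.06), *Gpi1* (-0.48 ± 0.03), *Aldoa* (-0.42 ± 0.06), *Gapdh* (-0.33 ± 0.07), *Pkm* (-0.21 ± 0.03) and *Eno1* (-0.15 ± 0.04). *Eno1* was no longer called without WT 10 min replicate 2 or WT 20 min replicates 2 or 3 (-0.14 to -0.13, adjusted p of 0.0505 to 0.0646). In *Tet2*-KO 1 member was lower (8.27% of all genes), which was *Gpi1* (-0.16 ± 0.03, adjusted p = 0.000604). Over the members, the median was -0.21 for WT and -0.04 for *Tet2*-KO. The summed share of the members was 0.0985 to 0.103% of gene reads at 10 min, 0.0791 to 0.0829% at 20 min and 0.0880 to 0.0894% at 40 min in WT. It was 0.0978 to 0.0997%, 0.0937 to 0.0958% and 0.0970 to 0.0998% in *Tet2*-KO. The members spanned 3711 (*Tpi1*) to 29007 bases (*Gpi1*), within the lower 3 of 5 equal groups of protein-coding genes by span, whose medians for this WT comparison were -0.02, -0.02 and -0.01.

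Whether the difference between genotypes itself changed with labelling time was tested as an interaction. The interaction from 10 to 40 min was planned, and that from 10 to 20 min was added after the levels had been seen. From 10 to 20 min, the difference in share moved up for 5 of 11 members, with 2.37% of all genes called so. They were *Aldoa* (0.46 ± 0.08, adjusted p = 0.000213), *Pfkl* (0.43 ± 0.12, adjusted p = 0.0368), *Pgk1* (0.41 ± 0.09, adjusted p = 0.00554), *Gpi1* (0.32 ± 0.05, adjusted p = 2.12e-05) and *Pkm* (0.19 ± 0.04, adjusted p = 0.00109). From 10 to 40 min it moved up for 3 of 11 (5.89% of all genes), *Pfkl* (0.38 ± 0.12, adjusted p = 0.0463), *Gpi1* (0.23 ± 0.05, adjusted p = 0.00102) and *Pkm* (0.14 ± 0.04, adjusted p = 0.00985). With TMM scaling 4 members were called higher from 10 to 20 min (327 of 19910 genes) and 1 from 10 to 40 min (774 of 19910 genes). Higher calls then made up 36.5% instead of 53.4% and 38.8% instead of 63.7% of the calls over all genes. The call for *Pfkl* from 10 to 20 min was lost without WT 10 min replicates 1 or 2, WT 20 min replicates 1 or 2, *Tet2*-KO 10 min replicate 2 or *Tet2*-KO 20 min replicate 2 (0.34 to 0.42, adjusted p of 0.0706 to 0.148). Its call from 10 to 40 min was lost without WT 10 min replicates 1 or 2, WT 20 min replicate 1, any WT 40 min replicate, *Tet2*-KO 10 min replicates 2 or 3, *Tet2*-KO 20 min replicate 3 or *Tet2*-KO 40 min replicates 1 or 2 (0.32 to 0.40, adjusted p of 0.051 to 0.152).

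Per ERCC read the calls went the other way. The difference fell from 10 to 20 min for 4 of 11 members (50.4% of all genes), namely *Ldha* (-0.52 ± 0.14), *Eno1* (-0.43 ± 0.13), *Gapdh* (-0.39 ± 0.14) and *Pkm* (-0.36 ± 0.12), and from 10 to 40 min for 1 (19.3% of all genes), *Ldha* (-0.40 ± 0.14, adjusted p = 0.0359). *Gapdh* was no longer called without WT 20 min replicate 3 (-0.31, adjusted p = 0.076) or *Tet2*-KO 10 min replicate 1 (-0.33, adjusted p = 0.0632), and *Ldha* from 10 to 40 min was not called without WT 10 min replicate 3, WT 40 min replicates 2 or 3, *Tet2*-KO 10 min replicates 1 or 3 or *Tet2*-KO 40 min replicates 2 or 3 (-0.41 to -0.32, adjusted p of 0.0537 to 0.156). The median of all genes moved by -0.51 from 10 to 20 min and by -0.29 from 10 to 40 min on this scale.

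**Figure D4:**
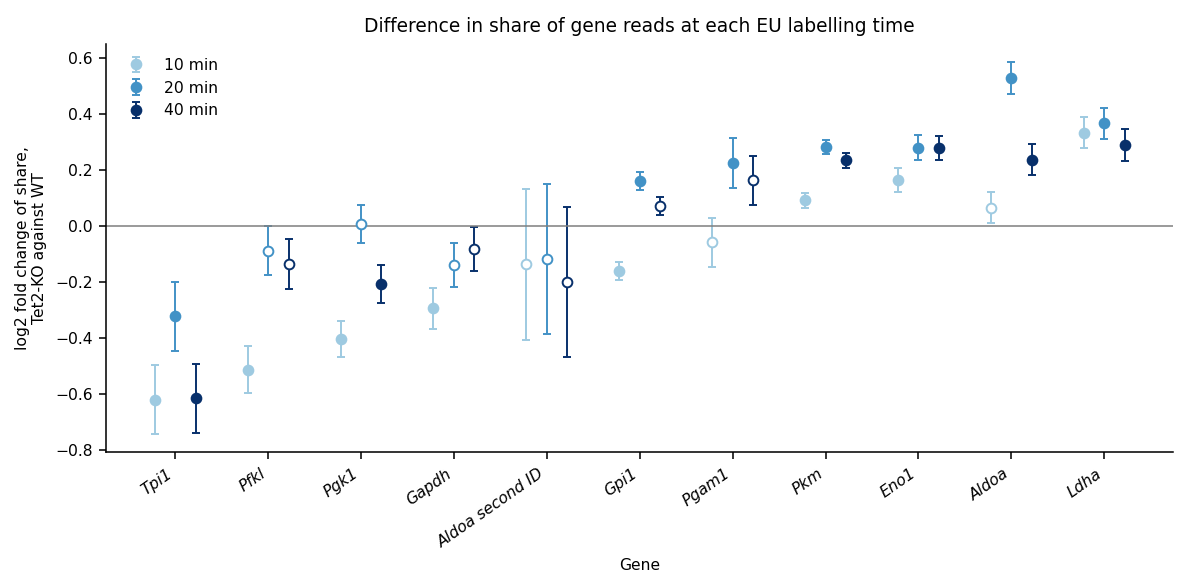
Log2 fold change of the share of gene reads, *Tet2*-KO against WT, at 10, 20 and 40 min of EU for each identifier, ordered by the mean over times. Bars are the standard error, filled points passed the test and open points did not. *Gpi1* crosses from lower at 10 min to higher at 20 min, and *Ldha* stays between 0.29 and 0.37.

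The slope of a level on EU time serves as a transcription rate. Fitted over the 9 libraries of a genotype, in reads per 1000 ERCC reads per min, *Pkm* had the steepest slope with 2.14 ± 0.10 (SE) in WT and 3.97 ± 0.16 in *Tet2*-KO, followed by *Gpi1* with 1.20 ± 0.06 and 1.997 ± 0.11. The ratio of the slopes, *Tet2*-KO over WT, was 1.92 ± 0.13 for *Eno1*, 1.86 ± 0.11 for *Pkm*, 1.85 ± 0.16 for *Ldha*, 1.83 ± 0.14 for *Aldoa*, 1.78 ± 0.19 for *Pgam1* and 1.67 ± 0.12 for *Gpi1*. It was 1.52 ± 0.20 for *Gapdh*, 1.495 ± 0.15 for *Pfkl*, 1.34 ± 0.14 for *Pgk1*, 1.31 ± 0.30 for the second *Aldoa* identifier and 0.989 ± 0.13 for *Tpi1*. *Tpi1* was the member whose slopes lay closest together, at 0.0877 ± 0.0049 in WT and 0.0867 ± 0.011 in *Tet2*-KO. The members' median was 1.67, and that of 15075 protein-coding genes was 1.54 with quartiles of 1.29 and 1.86. No test was run on the slopes.

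To compare members with each other, levels were divided by length. Per kb of exon and 1000 ERCC reads, medians over the 18 libraries were 11.7 for *Pkm*, 5.19 for *Aldoa*, 4.66 for *Gpi1*, 3.82 for *Pgk1*, 2.57 for *Eno1*, 2.49 for *Ldha*, 2.196 for *Gapdh*, 1.70 for *Pgam1*, 0.651 for *Tpi1*, 0.633 for the second *Aldoa* identifier and 0.543 for *Pfkl*. Some neighbours did not differ beyond their spread, such as *Aldoa* and *Gpi1* at 20 min in WT (3.68 ± 0.25 and 3.77 ± 0.13, SD, n = 3), *Eno1* and *Ldha* there (1.96 ± 0.11 and 1.79 ± 0.20), and *Tpi1* and *Pfkl* at 40 min in *Tet2*-KO (1.26 ± 0.23 and 1.20 ± 0.097). Because reads came from introns as well, the span is the length that they covered, and it gave another order. Per kb of span the medians were 2.74 for *Aldoa*, 2.55 for *Pkm*, 1.91 for *Gapdh*, 1.14 for *Eno1*, 1.04 for *Gpi1*, 0.583 for *Ldha*, 0.516 for *Pgk1*, 0.499 for *Pgam1*, 0.483 for *Tpi1*, 0.157 for *Pfkl* and 0.0608 for the second *Aldoa* identifier. *Aldoa* and *Pkm* did not differ beyond their spread at 20 min in WT (1.94 ± 0.13 and 1.93 ± 0.11, SD, n = 3). Ranked within groups by span, *Tpi1* was in place 6 or 7 in WT and in place 9 in *Tet2*-KO, and *Ldha* in place 7 or 8 in WT and in place 6 in *Tet2*-KO.

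*Pkm*, *Pgam1*, *Pgk1* and *Eno1* were the main isozymes of their families. Per kb of exon, *Pkm* made up 98.3 to 99.7% of *Pkm* and *Pklr* (the liver and red cell form), and *Pgam1* 82.4 to 96.3% of *Pgam1* and *Pgam2*. No read was counted on *Pgk2*, the copy used in sperm. *Eno1* made up 76.5 to 86.3% of *Eno1*, *Eno2* and *Eno3* in WT and 83.7 to 89.7% in *Tet2*-KO. These percentages are per kb of exon, although reads came from introns as well. That of *Eno1* is uncertain, because 72.2% of its 50-base words also occurred in other genes.

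The lactate dehydrogenase and phosphofructokinase families were mixed. *Ldha* made up 33.0 to 44.6% of *Ldha*, *Ldhb* and *Ldhc* in WT (median 41.4) and 29.2 to 34.2% in *Tet2*-KO (median 31.4), while *Ldhb*, the subunit typical of heart, made up 39.3 to 49.96% and 57.2 to 61.8%. Per kb of span *Ldha* was the larger part, with 56.2 to 67.7% in WT and 51.9 to 57.7% in *Tet2*-KO. *Ldhb* itself had a higher share of gene reads in *Tet2*-KO by a log2 fold change of 1.11 ± 0.04, with medians of 20.3 RPM in WT and 46.7 in *Tet2*-KO, beside 0.33 ± 0.03 for *Ldha*. *Pfkl* made up 19.3 to 21.7% of the phosphofructokinase genes in WT and 14.9 to 19.2% in *Tet2*-KO, against 46.3 to 56.3% and 54.0 to 62.1% for *Pfkp*, the platelet form, and 23.6 to 33.4% and 21.5 to 26.8% for *Pfkm*, the muscle form. Per kb of span *Pfkl* made up 30.1 to 33.5% in WT and 23.7 to 30.3% in *Tet2*-KO and lay above *Pfkm* (10.5 to 15.8% and 9.71 to 12.4%). As share of gene reads, *Pfkl* was lower in *Tet2*-KO (-0.25 ± 0.05) and *Pfkp* was higher (0.20 ± 0.02).

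Other genes of the pathway were taken from lists of hexokinases and isozymes, transporters, pyruvate entry, pentose phosphate pathway, gluconeogenesis and regulators, and compared as share of gene reads over all times. In this comparison 24.6% of all genes were called higher and 32.0% lower, and the counts of each list below stand beside these percentages. Of 20 hexokinases and isozymes, 18 were tested, with 5 higher and 7 lower. The most abundant was *Hk2*, the inducible hexokinase, at 301 to 381 RPM in WT and 200 to 247 in *Tet2*-KO, with a log2 fold change of -0.59 ± 0.02. The largest change called was in *Eno1b*, a copy of *Eno1* with 1 to 29 reads (2.48 ± 0.32). Its count is uncertain, because it shares most of its exon sequence with *Eno1*.

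Of 18 transporters and enzymes of fructose-2,6-bisphosphate, 16 were tested, with 2 higher and 6 lower. The most abundant was the glucose transporter gene *Slc2a3*, at 556 to 642 RPM in WT and 341 to 386 in *Tet2*-KO, with a log2 fold change of -0.73 ± 0.01 as share and 0.00 ± 0.05 per ERCC read. The largest change called was in *Slc2a4*, which had 2 to 35 reads (-1.01 ± 0.34). The 2 genes called higher, named after their values were seen, were *Pfkfb3* (0.69 ± 0.04), which makes the activator of phosphofructokinase, and the glucose transporter gene *Slc2a1* (0.34 ± 0.02).

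For the entry of pyruvate into mitochondria, 14 genes were tested, with 2 higher and 7 lower. *Mpc1*, a subunit of the mitochondrial pyruvate carrier, lay at 42.7 to 65.7 RPM in WT and at 12.9 to 19.1 in *Tet2*-KO, a log2 fold change of -1.88 ± 0.06, and it was lower per ERCC read as well (-1.16 ± 0.07). *Pdha1* of pyruvate dehydrogenase, the most abundant, had -0.06 ± 0.03 (adjusted p = 0.0543). In the pentose phosphate pathway 3 of 10 genes were higher and 4 lower. *Rpe*, the most abundant in WT (124 to 136 RPM, and 85.5 to 101 in *Tet2*-KO), was lower (-0.45 ± 0.02). *Tkt*, the most abundant in *Tet2*-KO (107 to 125 RPM, and 94.1 to 109 in WT), was higher (0.20 ± 0.02). The largest change called was in *Tktl1* with 13 to 34 reads (0.55 ± 0.21).

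Of 6 gluconeogenesis genes 4 were tested and 3 of them were higher, led by *Fbp2* (1.37 ± 0.14) and, as the most abundant, *Pck2* (0.53 ± 0.08). Both were low, with 16 to 79 and 108 to 360 reads per library. Of 10 transcription factors and oxygen sensors 2 were higher and 7 lower. *Epas1*, which encodes HIF2A, was lower on both scales (-1.39 ± 0.03 as share and -0.66 ± 0.06 per ERCC read), and *Arnt*, the most abundant, was lower as share (-0.24 ± 0.02). *Hif1a* had -0.08 ± 0.03 as share (adjusted p = 0.00754) and *Myc* -0.01 ± 0.07, named here as the known regulators of the members. *Mycn* of the same list was higher as share (0.35 ± 0.03, adjusted p = 1.36e-10). It had 661 to 1417 reads per library, against 135 to 326 for *Myc*. Medians of the 6 lists as share ran from -0.34 (hexokinases and isozymes) to 0.65 (gluconeogenesis), beside 0.02 for the members and -0.04 for all genes.

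**Figure D5:**
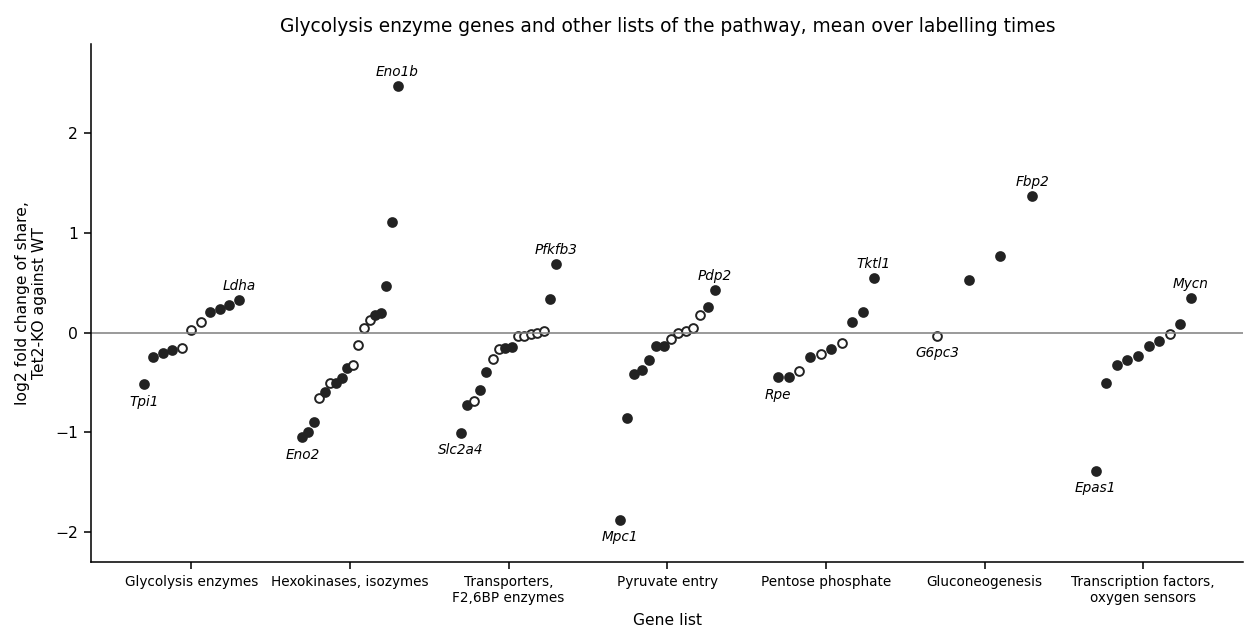
Log2 fold change of the share of gene reads, *Tet2*-KO against WT over all labelling times (vertical axis), for the tested genes of each list (horizontal axis). Filled points passed the test, open points did not, and the lowest and highest gene of each list are named. The glycolysis enzymes lie between -0.52 and 0.33, closer together than the isozymes, with *Eno1b* (1 to 29 reads) at 2.48, or the genes of pyruvate entry, with *Mpc1* at -1.88. Such a range is not particular to them, as the pentose phosphate genes lie between -0.45 (*Rpe*) and 0.55 (*Tktl1*).

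The members did not follow one pattern across the 18 libraries. Of 55 pairs of members 32 had a positive correlation of log2 share, and r ran from -0.81 to 0.93 with a median of 0.02. Named after the values were seen, *Aldoa*, *Eno1*, *Pkm* and *Ldha* went together (r of 0.77 to 0.93). So did *Pfkl*, *Gapdh* and *Pgk1* (0.79 to 0.90). These 18 points are 6 groups of 3 libraries and carry the differences between groups. Against the mean of the other members, r was highest for *Gpi1* (0.87) and below 0 for *Tpi1* (-0.35) and the second *Aldoa* identifier (-0.18). The members' mean is thus no pattern that all of them share. The protein-coding genes most like the members' mean were *Tomm20* (Pearson's r of 0.89 over the same libraries), *Samhd1* (0.86), *Rpl27a* (0.86), *Cox6b1* (0.85) and *Csf1* (0.85), out of 15147 genes, 22 of which had an r above 0.8.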

How the data were processed

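EU-labelled RNA of 18 dishes of mES cells was sequenced, and the authors deposited a table of read counts per gene for each library, not normalized, with 92 ERCC transcripts among the identifiers. The submitters' processing notes name Trimmomatic 0.39, HISAT2 2.2.1 and HTSeq 0.12.4, the genome was mm10 and the annotation GENCODE M19. The feature and strand settings of HTSeq are not given in the sources used here, and the whole-gene, strand-aware counting described above was read from the counts themselves. Reads outside genes (13.2 to 16.9% of all reads), ambiguous reads (2.32 to 2.50%) and reads without a unique place (5.24 to 5.99%) were left out.

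Names and spans came from GENCODE M21, where 54409 of 54446 identifiers had an entry. Genes were filtered with filterByExpr (minimum count 10), and 1 edgeR 4.0.16 quasi-likelihood model (R 4.3.3) over all 18 libraries and 19910 genes, of which 15158 are protein-coding, gave every contrast, with either the ERCC reads or the gene reads as library size and Benjamini-Hochberg adjustment at 0.05. Standard errors were taken from F, as |log2 fold change| over its root. On simulated counts for the mean over labelling times (19910 genes, 200 of them changed 2-fold), edgeR recovered 200 on both scales and called 9 unchanged genes per ERCC read and 6 as share. DESeq2 1.42.0 recovered 199 and 200 and called 8 and 11. The simulation drew genes independently with a single low dispersion and without error common to a library, and changed only well-counted genes. A 2-fold change is larger than the members' differences in share, so these recoveries do not tell how calls of that size fare. The counts carry no molecular identifiers, so depth covers counting error only. Replicates of a group differed by more than sampling noise in all 18 pairs (mean chi-square per gene of 1.66 to 5.52).

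The members and gene lists were chosen with earlier results of these data known. All members were described, and of each other list the gene with the largest change among those called and the most abundant gene were named. The genes most like the members were the 5 protein-coding genes with the highest correlation to the mean of the members' scaled log2 shares (0.5 reads added). The alternatives comprised TMM scaling, DESeq2, a total of protein-coding reads, ERCC transcripts with at least 100 reads, other filters, the groups compared alone, the replicate number as a term and the omission of single libraries. The comparisons of 20 with 10 min and isozyme shares per span were added after seeing the data.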

Additional observations from a re-analysis of the deposited data

Results flagged for a closer look

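The difference between genotypes changed with labelling time in 13 cases, as tested by the interaction term in edgeR (Benjamini-Hochberg adjusted p). The cases from 10 to 20 min come from a comparison added after the levels had been seen, so their p-values weigh less than those from 10 to 40 min. As share of gene reads, the log2 difference moved up from 10 to 20 min by 0.32 for *Gpi1* (adjusted p = 2.12e-05), 0.43 for *Pfkl* (adjusted p = 0.0368), 0.46 for *Aldoa* (adjusted p = 0.000213), 0.41 for *Pgk1* (adjusted p = 0.00554) and 0.19 for *Pkm* (adjusted p = 0.00109), with 2.37% of all genes called so. From 10 to 40 min it moved up by 0.23 for *Gpi1* (adjusted p = 0.00102), 0.38 for *Pfkl* (adjusted p = 0.0463) and 0.14 for *Pkm* (adjusted p = 0.00985), with 5.89% of all genes called so.

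Per ERCC read the change from 10 to 20 min was -0.39 for *Gapdh* (adjusted p = 0.0163), -0.43 for *Eno1* (adjusted p = 0.0047), -0.36 for *Pkm* (adjusted p = 0.00937) and -0.52 for *Ldha* (adjusted p = 0.00153), and from 10 to 40 min it was -0.40 for *Ldha* (adjusted p = 0.0359). Over all genes 50.4% were called lower from 10 to 20 min (median of -0.51) and 19.3% from 10 to 40 min (median of -0.29). *Pkm* thus changed upwards as share and downwards per ERCC read.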

How the results depend on the processing

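Among the members' values, 872 kept direction and call under the alternatives other than left-out libraries, 13 lost a call, 4 gained one and 2 changed sign. With a library left out, 2552 kept both, 54 lost a call and 4 gained one. The sign changed for *Pkm* at 40 against 10 min in WT as share, to 0.025 with TMM (adjusted p = 0.473) and 0.021 with DESeq2 (adjusted p = 0.579). The change from 10 to 40 min per ERCC read had 0 members called lower with no filter (*Ldha* at adjusted p = 0.0614), and 0 to 1 with a library left out. At 20 min, 0 members had a lower share with no filter, with TMM or with DESeq2 (*Tpi1* at adjusted p of 0.0618, 0.0677 and 0.0645), and 0 to 1 with a library left out. With TMM 3628 of 19910 genes were called lower at 20 min. The call of *Pgam1* at 20 min was lost with no filter (adjusted p = 0.0774) and with the total of protein-coding reads (adjusted p = 0.0543). At 40 min 1 to 2 members had a lower share with a library left out. For the change from 10 to 40 min as share, 1 member was called higher with TMM (774 of 19910 genes) and 1 with DESeq2, where *Pkm* was at 0.09 and 0.08 (adjusted p of 0.155 and 0.183). At 40 against 10 min in *Tet2*-KO, members called higher as share were 0 with no filter, 2 with TMM, 2 with DESeq2 and 0 to 1 with a library left out, and those called lower 1 to 3. With TMM 4001 of 19910 genes were called higher there and 3348 lower. At 20 against 10 min in *Tet2*-KO, 2 members were called lower with no filter. The median ratio of slopes was 1.36 over 10 and 20 min and 1.82 over 20 and 40 min. By span, the places in the order of the mean over the 6 groups were 1 for *Aldoa*, 2 for *Pkm*, 3 for *Gapdh*, 4 for *Eno1*, 5 for *Gpi1*, 7 for *Pgam1* and 8 for *Pgk1*, which change places by the median over libraries. The cause of these changes was not tested. Samples with the same replicate number showed no common deviation (45 pairs, r of -0.23 to 0.19 over 11216 genes), so the numbers were not taken to pair the samples. With 3 libraries per group this check cannot exclude a pairing. With a replicate block, *Pfkl* from 10 to 40 min as share was at 0.37 (adjusted p = 0.0534), and the block changed no other call of a member. Depth limits *Tpi1* (140 to 321 reads) and the second *Aldoa* identifier (32 to 76 reads) most.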
